A study of Rattus norvegicus with 47 samples.

Results

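The genes described here are 9 transcription factors of B cells: Ebf1, Pax5, Bcl11a, Spib, Pou2f2, Pou2af1, Bach2, Ikzf3 and Irf4. They were taken by gene symbol, and all 9 were found among the 20935 symbols of a blood expression table of 27596 probe sets. A probe set is the group of array probes summarized to 1 value. Where a symbol had more than 1 probe set, the probe set with the highest mean over the time points was used, and the other is described beside it. The choice of genes did not use the measured values of the genes, although earlier results of these data were known when it was made.

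Blood mRNA was measured on 47 Affymetrix RaGene arrays from 8 male SHR (spontaneously hypertensive rats), 16 weeks of age, at 0, 1, 2, 3, 6 and 24 hours after occlusion of the middle cerebral artery (MCA). There were 8 arrays at each time point and 7 at 6 h. The 0 h sample was taken before anesthesia, the artery was reopened between the 1 h and the 2 h samples, the samples from 0 to 6 h came from the tail vein and the 24 h sample came from the heart, right after a terminal overdose of isoflurane. All rats had the surgery under isoflurane and there was no sham group, so that occlusion, surgery, anesthesia and repeated bleeding cannot be told apart. The 1 h sample preceded reperfusion, and from 2 h on reperfusion cannot be told apart from the rest. At 24 h, time, sampling site and this overdose cannot be told apart. Signals are on a log2 scale, so that each unit is a doubling. Each level is given as the mean ± SD that the authors computed over the arrays of a time point. The values of single rats are not given, because the single-array columns carry running numbers, from 1 to 48 without 17, that no sample label holds. Samples were not assigned to them by their order. The signal of the whole table had a median of 6.61 at 0 h and the means ran from 2.29 to 13.62. The RNA was that of blood, with the haemoglobin gene Hbb at 13.50 and the platelet gene Pf4 at 13.06 at 0 h.

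A B cell is set up and kept by a small network of transcription factors. Ebf1 opens B lineage genes and Pax5 commits the cell to that lineage, and both act on genes of the B cell receptor complex such as Cd79a and Cd79b. Spib, a relative of PU.1, and Irf4 can bind DNA together at joined ETS and interferon response motifs. Pou2f2 (Oct-2) binds the octamer motif of immunoglobulin promoters, where Pou2af1 is its coactivator. Bach2 holds back the change from B cell to plasma cell, Ikzf3 (Aiolos) is a zinc finger factor of the Ikaros family, and Bcl11a is a zinc finger repressor required for early B cells. Ikzf3, Irf4 and Bach2 are also active in T cells, and Spib, Irf4 and Bcl11a in plasmacytoid dendritic cells. B cells are a minority of blood cells, and in whole blood RNA fewer cells of a type and less RNA per cell cannot be told apart.

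The RefSeq promoter table (GRCr8) held the 300 bases around the start of 6 of the 9 genes, from 250 bases before the start to 50 after it. No promoter is shown for Pax5, Pou2af1 and Ikzf3. The array positions given further on are on another build, rn5, and the coordinates of both are not compared. The strand of Irf4 differs between them, minus in GRCr8 and plus in rn5, and the reason was not tested. The other genes with a promoter window have the same strand in both. Both strands were searched for the EBF core CCCNNGGG, the octamer ATGCAAAT, the ETS core GAGGAA, the Ikaros core TGGGAA, the E-box CAGGTG, the GC box GGGCGG and the TATA box TATAAA. The promoters of 3 factors are shown, that of Ebf1 as the factor whose fall was the largest among the probe sets used, and those of Spib and Irf4 as the pair that can bind DNA together. Each is written in the direction of its gene, with any of these motifs in capitals.
Ebf1 (GRCr8 chr10:29601671-29601970, plus strand): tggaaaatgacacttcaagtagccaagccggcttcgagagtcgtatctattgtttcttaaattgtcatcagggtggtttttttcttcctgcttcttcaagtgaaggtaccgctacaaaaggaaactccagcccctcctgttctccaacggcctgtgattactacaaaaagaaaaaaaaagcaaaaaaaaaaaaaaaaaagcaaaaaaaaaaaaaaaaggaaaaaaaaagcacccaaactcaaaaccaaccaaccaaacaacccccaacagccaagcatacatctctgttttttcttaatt
Spib (GRCr8 chr1:104161246-104161545, minus strand): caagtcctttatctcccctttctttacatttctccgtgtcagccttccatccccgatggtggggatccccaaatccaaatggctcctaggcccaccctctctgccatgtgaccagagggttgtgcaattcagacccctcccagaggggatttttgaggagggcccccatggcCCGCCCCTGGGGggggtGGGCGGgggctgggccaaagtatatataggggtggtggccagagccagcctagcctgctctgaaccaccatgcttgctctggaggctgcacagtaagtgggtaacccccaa
Irf4 (GRCr8 chr17:33948681-33948980, minus strand): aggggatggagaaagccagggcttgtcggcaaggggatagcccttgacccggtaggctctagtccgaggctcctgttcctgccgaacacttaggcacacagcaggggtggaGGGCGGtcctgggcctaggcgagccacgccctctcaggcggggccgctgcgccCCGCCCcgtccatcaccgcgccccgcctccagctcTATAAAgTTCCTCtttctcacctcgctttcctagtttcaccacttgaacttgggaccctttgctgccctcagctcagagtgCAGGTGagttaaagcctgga

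The Ebf1 window is rich in runs of A, has a GC content of 37% and held none of the 7 motifs. The Spib window, at 59.3% GC, held 2 GC boxes and, beside and overlapping the first of them, the EBF core at 2 overlapping positions. The Irf4 window, at 62.7% GC, held 2 GC boxes, a TATA box, an ETS core on the reverse strand and an E-box after the start. Among the other 3, the Pou2f2 window held GC boxes, an ETS core and an E-box, the Bcl11a window held an ETS core, and the Bach2 window held none of the motifs. Of all 33469 promoters of this length, 12.4% held the EBF core, 27.6% the ETS core, 18.8% the E-box, 33.1% the GC box and 14.2% the TATA box. The octamer and the Ikaros core were in none of the 6 windows, against 1.78% and 25.7% of all promoters. The letters alone do not show binding, and with 6 windows no share is compared.

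Of the 9 factors, 8 were called lower than at 0 h at every later time point, and Pax5 changed least. At 1 h, 8 of 9 were called lower, where 15.4% of all probe sets were. A gene is called where the adjusted p of limma's moderated test is below 0.05 (two-sided, Benjamini-Hochberg over all probe sets). At 2 h all 9 were called lower, where 18.6% of all probe sets were. At 3, 6 and 24 h it was again 8 of 9, beside 19.2%, 19.3% and 13.9% of all probe sets. At 24 h the count was 6 after quantile normalization of the means. No factor was called higher than at 0 h at any time by limma, and 0 were higher at an unadjusted p below 0.05. Of all probe sets, 21.7%, 21.7%, 27.3%, 22.5% and 17.4% were called higher at 1, 2, 3, 6 and 24 h. The median changes of the 9 at these 5 times were -0.74, -0.92, -0.94, -0.94 and -0.59, while the median of all probe sets lay between 0.04 and 0.07. In the F-test over the 6 time points, 8 of 9 passed, and 55.5% of all probe sets did. These p-values take arrays as independent although the same rats were bled each time, and RMA sets each signal relative to the rest of the array.

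**Figure D1:**
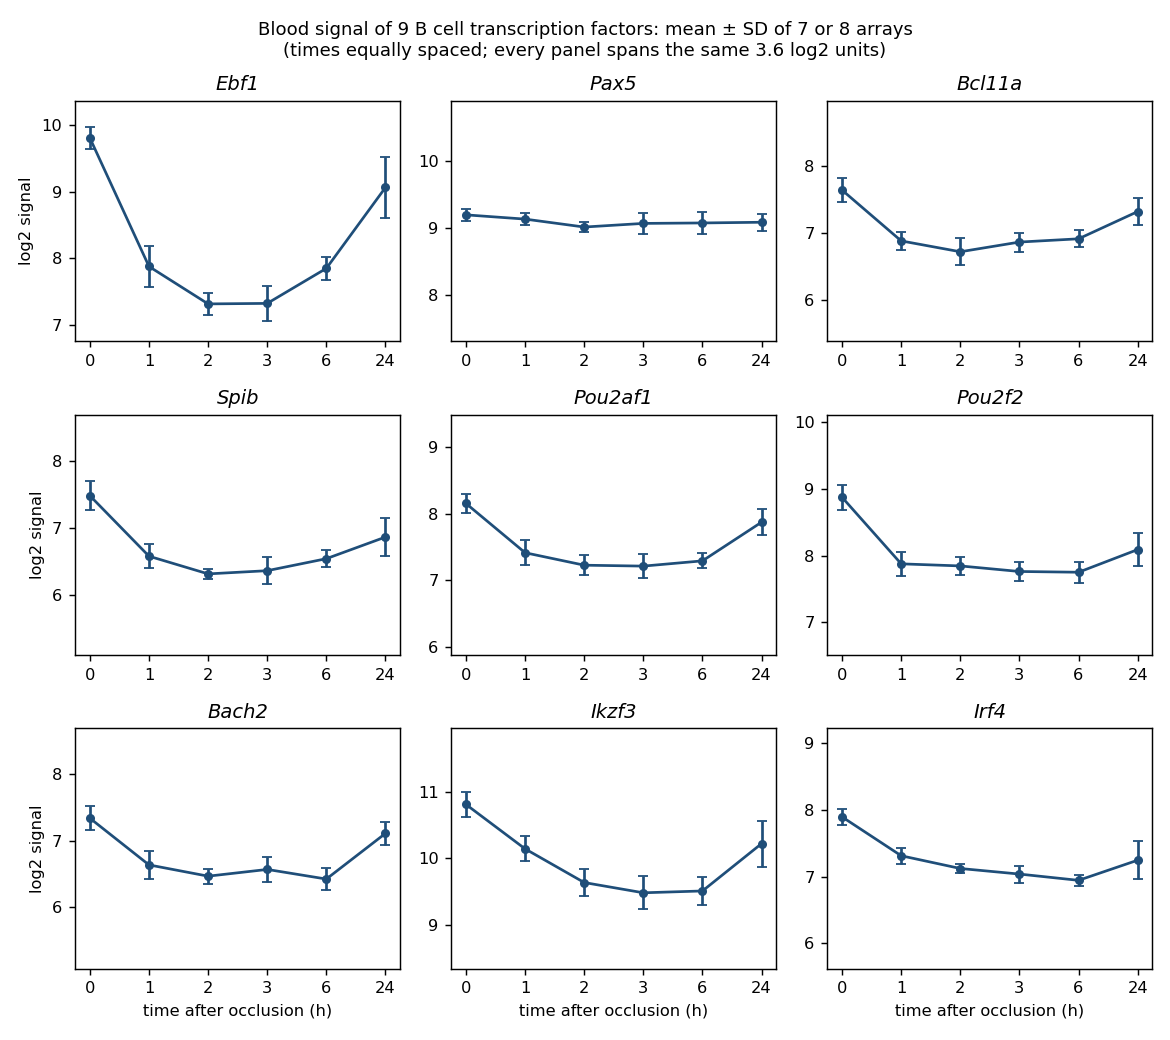
Log2 signal (y axis) of each of the 9 factors against hours after occlusion (x axis, times equally spaced), as the mean with bars of ± 1 SD over 8 arrays (7 at 6 h). In 8 panels the signal drops by 1 h, stays low to 6 h and is partly back at 24 h, while Pax5 stays between 9.02 and 9.20.

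Ebf1, which starts the B lineage programme, fell most among the 9 probe sets used. Its probe set (10732941, rn5 chr10:23523930-23910765, plus strand) spans 386836 bases from its first to its last position. Its level was 9.80 ± 0.17 (SD, n = 8) before occlusion and then 7.88 ± 0.31, 7.32 ± 0.17, 7.32 ± 0.26, 7.85 ± 0.17 (n = 7) and 9.06 ± 0.46 at 1, 2, 3, 6 and 24 h. The signal had its floor at 2 and 3 h, and the fall was larger than the SD at every time point. The change was -2.49 at 2 h (SE 0.13, adjusted p = 2.82e-20), a 5.60-fold fall to 17.9% of the signal at 0 h. The fall at 2 h was 5.44 times the highest SD of Ebf1 at any time. In the order of all 27596 probe sets from the largest fall, Ebf1 took places 2, 4 and 1 at 1, 2 and 3 h. A further probe set of Ebf1 (10732939), 397 bases long and ending 404 bases before the start of the first, gave a similar course. It went from 9.12 ± 0.50 at 0 h to 6.71 ± 0.31 at 3 h, a change of -2.41 (adjusted p = 9.36e-16), and was at 8.05 ± 0.47 at 24 h.

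Pax5, the commitment factor that acts beside Ebf1, had the opposite place in the group. Its level was 9.20 ± 0.09 before occlusion and then 9.13 ± 0.10, 9.02 ± 0.07, 9.07 ± 0.15, 9.08 ± 0.17 and 9.09 ± 0.12 at 1, 2, 3, 6 and 24 h. The lowest mean was that at 2 h. The change of -0.18 at 2 h was called (95% interval -0.31 to -0.06, adjusted p = 0.0171). It was not called after quantile normalization of the means (-0.10, adjusted p = 0.227). At 1, 3, 6 and 24 h the changes were between -0.13 and -0.06 with adjusted p from 0.0875 to 0.44, and the F-test did not pass (adjusted p = 0.143). The 95% intervals reached down to -0.19 at 1 h, -0.25 at 3 and 6 h and -0.24 at 24 h, and the change of every other factor at these times lay below them, apart from Bach2 at 24 h. The probe set (10876497, rn5 chr5:64530218-64535997, minus strand) spans 5780 bases. Pax5 has this probe set only, and how much of the transcript its probes cover was not assessed.

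Bcl11a, the zinc finger repressor, fell in both of its probe sets, by sizes that differed. The probe set with the longer span (10774596, rn5 chr14:108548150-108641100, plus strand) was at 7.64 ± 0.18 before occlusion and then at 6.88 ± 0.14, 6.72 ± 0.20, 6.86 ± 0.14, 6.91 ± 0.13 and 7.32 ± 0.20 at 1, 2, 3, 6 and 24 h. Its change at 2 h was -0.92 (95% interval -1.09 to -0.76, adjusted p = 6.33e-13). The short probe set (10774605, rn5 chr14:108635688-108636078, 391 bases inside the first) was at 8.17 ± 0.40 before occlusion and then at 6.29 ± 0.71, 5.52 ± 0.42, 6.31 ± 0.56, 6.58 ± 0.59 and 7.75 ± 0.52 at 1, 2, 3, 6 and 24 h. It fell by 2.66 at 2 h (95% interval -3.17 to -2.14, adjusted p = 5.01e-12), to 15.9% of the signal at 0 h, which was the largest fall of any probe set in the table. The intervals of both probe sets do not overlap at 2 h, and the fall of the short one was 2.88 times that of the long one on the log2 scale. At 24 h the long probe set was called lower (-0.32, adjusted p = 0.00269), and the short one, with its wider spread, was not (-0.43, adjusted p = 0.202). Which transcripts each of them detects was not tested. Bcl11a is also active in red cell precursors, where it silences embryonic and fetal globin genes, and the 8 erythroid genes examined had 0 calls at 2 h by limma and 0 at an unadjusted p below 0.05. At the other times some were called, 3 higher at 1 h, 1 higher at 3 h, 3 lower at 6 h and 4 higher at 24 h, and their part in the Bcl11a values was not tested.

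**Figure D2:**
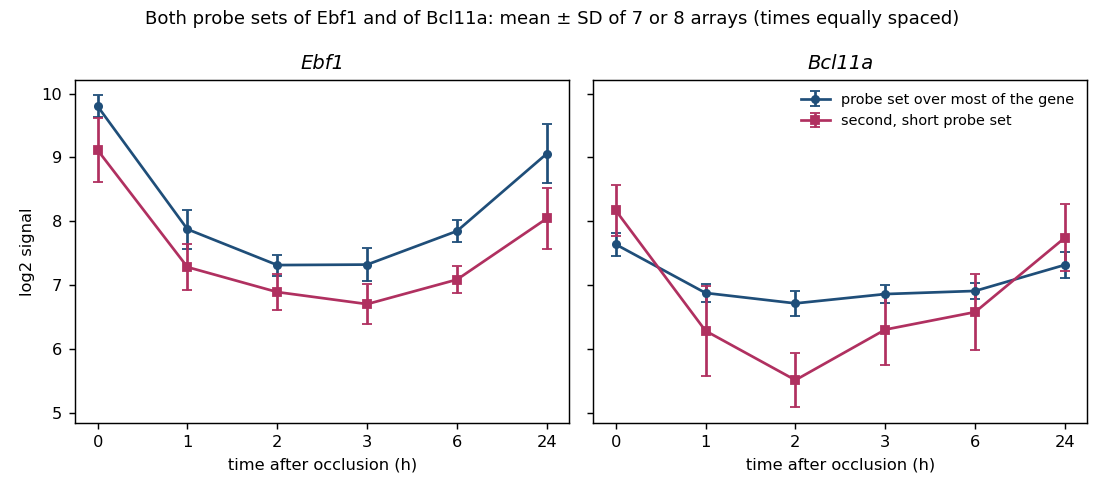
Log2 signal (y axis) of both probe sets of Ebf1 (left) and Bcl11a (right) against hours after occlusion (x axis, times equally spaced), as the mean with bars of ± 1 SD over 8 arrays (7 at 6 h). The Ebf1 probe sets fall side by side, and the short Bcl11a probe set falls from 8.17 to 5.52 at 2 h while the long one falls from 7.64 to 6.72.

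Spib and Irf4, which can share composite DNA sites, had their lowest means at different times. Between 2 and 6 h neither was called changed by limma (Spib 0.23, adjusted p = 0.141, and Irf4 -0.18, adjusted p = 0.156). Spib (10721388, rn5 chr1:101596929-101602764, minus strand) was at 7.48 ± 0.21 before occlusion and then at 6.58 ± 0.18, 6.31 ± 0.08, 6.36 ± 0.20, 6.54 ± 0.13 and 6.86 ± 0.28 at 1, 2, 3, 6 and 24 h. It was lowest at 2 h, with a change of -1.17 (adjusted p = 2.14e-14) to 44.4% of the signal at 0 h. Irf4 (10798175, rn5 chr17:38500440-38514137, plus strand) was at 7.89 ± 0.12 before occlusion and then at 7.31 ± 0.12, 7.12 ± 0.07, 7.04 ± 0.13, 6.94 ± 0.08 and 7.25 ± 0.28 at 1, 2, 3, 6 and 24 h. Its mean was lower at each time point up to 6 h, where the change was -0.95 (adjusted p = 3.61e-14), or 51.8% of the signal at 0 h. At 1 h Spib had reached 77.4% of its largest fall and Irf4 61.2%.

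The octamer factor and its coactivator were both lower from 1 h on. Pou2f2 (10719777, rn5 chr1:83226967-83263163, minus strand) was at 8.87 ± 0.19 before occlusion and then at 7.88 ± 0.18, 7.85 ± 0.13, 7.76 ± 0.14, 7.75 ± 0.16 and 8.09 ± 0.25 at 1, 2, 3, 6 and 24 h. Its fall was the most abrupt of the 9, with 88.8% of the largest fall reached at 1 h and a change of -1.12 at 6 h (adjusted p = 1.87e-14). Pou2af1 (10909948, rn5 chr8:54198822-54224544, plus strand) was at 8.15 ± 0.14 before occlusion and then at 7.41 ± 0.19, 7.23 ± 0.15, 7.21 ± 0.19, 7.29 ± 0.11 and 7.87 ± 0.19 at 1, 2, 3, 6 and 24 h. Its largest change was -0.94 at 3 h (adjusted p = 1.99e-13). At 24 h Pou2f2 still had a change of -0.78 (95% interval -0.96 to -0.61, adjusted p = 3.43e-09), and Pou2af1 had a change of -0.28 (95% interval -0.44 to -0.12, adjusted p = 0.00723), so that the intervals of this pair did not overlap. The 24 h change of Pou2af1 was not called after quantile normalization (-0.19, adjusted p = 0.0834).

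Bach2, which restrains plasma cell formation, and Ikzf3, the Ikaros family factor, also fell. Bach2 (10868000, rn5 chr5:52328506-52409922, plus strand) was at 7.34 ± 0.18 before occlusion and then at 6.64 ± 0.21, 6.47 ± 0.11, 6.57 ± 0.19, 6.42 ± 0.17 and 7.11 ± 0.17 at 1, 2, 3, 6 and 24 h. Its change was -0.91 at 6 h (adjusted p = 6.52e-12) and -0.23 at 24 h (adjusted p = 0.0379), the latter not called after quantile normalization (-0.20, adjusted p = 0.0806). Ikzf3 (10746905, rn5 chr10:86218269-86277324, minus strand) was at 10.81 ± 0.19 before occlusion and then at 10.14 ± 0.19, 9.64 ± 0.20, 9.48 ± 0.25, 9.51 ± 0.22 and 10.22 ± 0.35 at 1, 2, 3, 6 and 24 h. Its change was -1.32 at 3 h (adjusted p = 2.50e-13), the largest after Ebf1 among the 9 probe sets used, though smaller than that of the short Bcl11a probe set, to 40.0% of the signal at 0 h. Ikzf3 had reached 50.3% of that fall at 1 h, the lowest share among the 8 factors called at that time.

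The 8 factors called lower at 1 h had by then reached from 50.3% (Ikzf3) to 88.8% (Pou2f2) of their largest fall. Pax5, which was not called at 1 h, had reached 34.8%. From 1 to 2 h, 2 of the 9 were called lower, Ebf1 (-0.56, adjusted p = 0.00346) and Ikzf3 (-0.50, adjusted p = 0.00241), where 4.11% of all probe sets were. With the spread taken from the compared time points alone, or without the 24 h arrays, 4 were called. Of the short probe sets, that of Ebf1 was not called in this step (-0.39, adjusted p = 0.181) and that of Bcl11a was (-0.77, adjusted p = 0.0479). From 2 to 3 h, limma called 0 of 9 lower, where 1.62% of all probe sets were, and 0 had an unadjusted p below 0.05 in either direction. The short Bcl11a probe set had a change of 0.79 in this step (95% interval 0.28 to 1.30), which was not called (adjusted p = 0.0724). From 3 to 6 h, Ebf1 was the only factor called higher (0.52, adjusted p = 0.0157), where 2.34% of all probe sets were, and its short probe set was not called (0.38, adjusted p = 0.257). From 2 to 6 h, Ebf1 was again the only factor called higher (0.53, adjusted p = 0.00651), where 5.17% of all probe sets were. This again rests on the probe sets used, since the short one of Ebf1 was not called from 2 to 6 h (0.20, adjusted p = 0.585) and the short one of Bcl11a was higher (1.06, adjusted p = 0.00455). Irf4, Bach2 and Pou2f2 had their lowest means at 6 h.

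Between 6 and 24 h every factor but Pax5 rose. The count was 8 of 9, where 10.2% of all probe sets were called higher. Ebf1 rose by 1.21 (adjusted p = 1.49e-09), Ikzf3 by 0.71 (9.40e-06), Bach2 by 0.68 (4.05e-08) and Pou2af1 by 0.58 (4.98e-07), each a limma adjusted p. The rises of Bcl11a, Pou2f2, Spib and Irf4 were between 0.30 and 0.41. Against 2 h, 7 of 9 were higher at 24 h, where 8.70% of all probe sets were. It was 6 after centring, after quantile normalization, without moderation and with the spread of the compared times alone. The exceptions were Pax5 (0.07, adjusted p = 0.51) and Irf4 (0.12, 95% interval -0.03 to 0.28, adjusted p = 0.304).

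The factors differed in how much of the fall was left at 24 h, taken as the 24 h change over the largest change on the log2 scale. It was 24.97% in Bach2, 29.8% in Ebf1, 29.9% in Pou2af1 and 34.8% in Bcl11a. The short probe sets gave 44.4% for Ebf1 and 16.1% for Bcl11a, so that the order of these 4 depends on the probe set. It was 44.3% in Ikzf3, 52.9% in Spib, 68.2% in Irf4 and 69.8% in Pou2f2. At 24 h the changes of Pou2f2 (-0.78) and Ebf1 (-0.74) were the largest, with intervals that overlap and no settled order: it turned after quantile normalization (-0.71 and -0.72) and with the short Ebf1 probe set (-1.07). No test of these shares was run, since the covariance of genes within arrays is not in the means and SDs. Among the probe sets used, 7 of the 9 factors had their highest SD at 24 h, against 17.5% of all probe sets, and the SD of Ebf1 at 24 h was 2.69 times that at 0 h. The short probe sets did not share this, with the highest SD at 0 h for Ebf1 (24 h over 0 h, 0.951) and at 1 h for Bcl11a. The parts of the sampling site and of the isoflurane overdose in the 24 h values cannot be told apart from time.

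**Figure D3:**
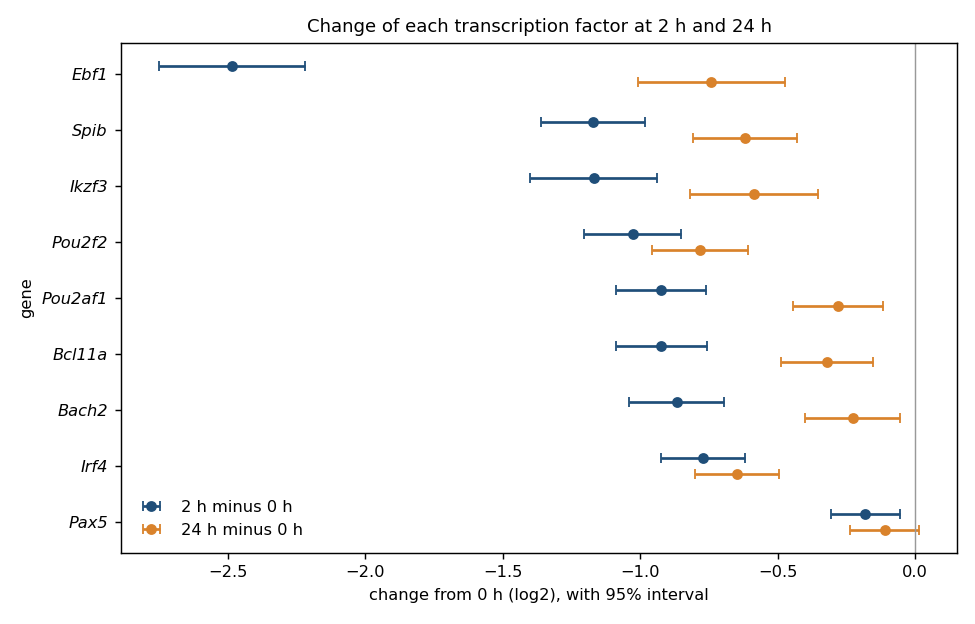
Change from 0 h (x axis, log2) of each factor (y axis) at 2 h (blue) and 24 h (orange), with 95% intervals from the moderated SE, ordered by the change at 2 h. Every point lies closer to 0 at 24 h than at 2 h, and Ebf1 moves from -2.49 to -0.74.

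The courses can be set side by side by the root mean square (RMS) difference of the 5 changes from 0 h. Pou2af1 and Bach2 were the closest pair (0.09), followed by Bcl11a with Pou2af1 (0.09) and with Bach2 (0.10), and then by Spib and Pou2f2 (0.13). Ebf1 and Pax5 were the furthest apart (1.90). Among 20071 other symbols with the same measure, the nearest to Ebf1 were Cd79b (0.09), the signalling chain of the B cell receptor, Ms4a1 (0.16), which encodes CD20, and Fcmr (0.21), the IgM receptor. All 3 are B cell genes, and Cd79b is a known target of Ebf1. The nearest to Irf4 included Eef1b2 (0.04), a translation elongation factor subunit, and the nearest to Pou2f2 was Gas5 (0.08), a noncoding host of small nucleolar RNAs. Near Ikzf3 were Jup (0.06), Aim2 (0.07), a DNA sensor, and Cx3cr1 (0.08), the fractalkine receptor of monocytes and lymphocytes. Further nearest genes were Ppp2r1b (0.06) and Ppp1r16b (0.06) for Irf4, Rcan3 (0.08) and Fmnl3 (0.09) for Pou2f2, Fam126b (0.06), RragB (0.07) and LOC102555051 (0.07) for Spib, and Tex264, Dcaf15 and Acsm3 (each 0.02) for Pax5. The nearest were Nln (0.04), Phyh (0.06) and Slc35b4 (0.07) for Bcl11a, Rfc1 (0.05), Eif2ak4 (0.07) and Snx29 (0.08) for Pou2af1, and Chd6 (0.07), Nsf (0.07) and Phyh (0.07) for Bach2. Arhgap12, Rras2 and Maob (0.04, 0.04 and 0.05) were nearest to the mean course of the 9, which was -0.82, -1.06, -1.06, -0.99 and -0.48 at 1, 2, 3, 6 and 24 h.

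Relatives of the factors with other roles did not all take the same course. Of 10 family relatives, 6 were called lower and 3 higher at 2 h, with a median of -0.29. Of all probe sets, 18.6% were called lower and 21.7% higher at that time. Spi1, which encodes PU.1 and works in myeloid cells as well as B cells, rose by 0.27 at 2 h (adjusted p = 0.00131) and by 0.68 at 6 h (adjusted p = 4.59e-11), when Spib had a change of -0.94. Bach1 rose by 0.37 at 2 h (adjusted p = 0.0121), when Bach2 had a change of -0.87. Irf8, a factor of B cells, monocytes and dendritic cells, fell by 1.07 at 2 h (adjusted p = 2.49e-11), its lowest point, and had a change of -0.79 at 6 h, when Irf4 was at its lowest (-0.95). Irf2, a widely active factor, had a change of 0.04 at 2 h (adjusted p = 0.628). It was called lower at 3 h (-0.22, adjusted p = 0.00667), 6 h (-0.27, 0.00209) and 24 h (-0.21, 0.0191).

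Within the Ikaros family, Ikzf1 fell by 0.33 at 2 h (adjusted p = 5.65e-06), Ikzf2 by 0.51 (1.84e-07) and Ikzf5 by 0.25 (0.00784), all less than Ikzf3. Bcl11b, the T cell relative of Bcl11a, fell by 0.53 at 2 h (adjusted p = 2.28e-09) and was lowest at 6 h (-0.63). Pou2f1, the broadly expressed octamer factor, fell by 0.32 at 2 h (adjusted p = 0.000418). Ebf3, whose signal was 6.23 at 0 h, below the median of the table, rose by 0.16 at 2 h (adjusted p = 0.0303), a call that was lost after centring (0.13, adjusted p = 0.0837) and after quantile normalization (0.11, adjusted p = 0.167). The change of Ikzf5 was not called after quantile normalization either (-0.13, adjusted p = 0.191). These pairs differ in direction or size as listed, and the differences between genes were not tested.

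**Figure D4:**
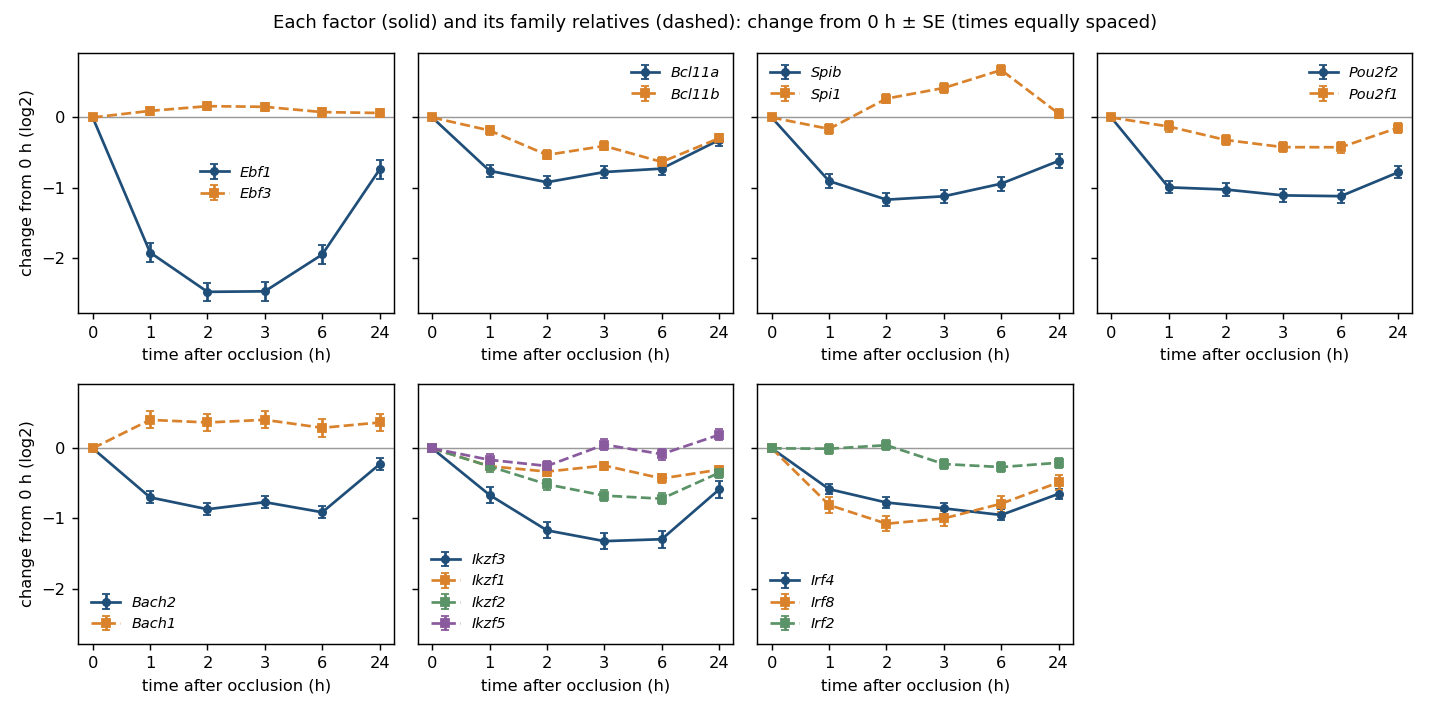
Change from 0 h (y axis, log2) of each factor (solid, circles) and its family relatives (dashed, squares) against hours after occlusion (x axis, times equally spaced), with bars of ± 1 SE. Spi1 and Bach1 lie above 0 at 2 h where Spib and Bach2 lie below. The lowest mean of Irf8 is at 2 h and that of Irf4 at 6 h. The 2 h and 6 h levels of Irf4 were not called different by limma (adjusted p = 0.156).

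Genes taken as targets of Ebf1 and Pax5 were lower at 2 h too. All 8 textbook targets of Ebf1 and Pax5 were called lower at 2 h, with a median of -1.87, from -2.37 in Cd79b to -0.33 in Blk, a Src family kinase, and 6 of 8 at 24 h, with a median of -0.49. Bank1, a B cell adaptor, fell by 2.04 at 2 h and Cd72, an inhibitory coreceptor, by 1.02. Of 20 other B cell genes, which include those 8, 17 were called lower and 0 higher by limma at 2 h (0 higher at an unadjusted p below 0.05), with a median of -1.45, and Ms4a1 fell by 2.56. Btk (0.07, adjusted p = 0.501) and Cd40 (-0.11, adjusted p = 0.291) were not called, so that Pax5 was not the only B cell gene with a small change. Of 14 cofactors and upstream factors, 10 were lower and 2 higher at 2 h (median -0.59), beside 18.6% and 21.7% of all probe sets. Mef2c, a MADS box factor, fell by 1.13 (adjusted p = 1.94e-15) and Aff3 by 1.11 (4.11e-14), while Runx1 (-0.03, adjusted p = 0.753) and Klf2 (-0.05, 0.705) were not called.

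Genes of the plasma cell programme, which Bach2 and Pax5 hold down and Irf4 drives, were called in both directions at 2 h and in 1 at 24 h. Of 7 found, 2 were lower and 1 higher at 2 h, where 18.6% of all probe sets were lower and 21.7% higher. The counts at 2 h were not tested against these shares. At 24 h 4 were lower and 0 higher by limma (0 also at an unadjusted p below 0.05), with a median of -0.27. Of all probe sets, 13.9% were lower and 17.4% higher at 24 h. Xbp1, a factor of the secretory programme that other cells use too, rose by 0.63 at 2 h and by 1.40 at 3 h (adjusted p = 4.59e-17) and was at 0.09 at 24 h. Igj, the joining chain of IgM and IgA, was lower at each time point, from -0.41 at 1 h to -1.43 at 24 h (adjusted p = 5.56e-11), and did not return. Prdm1, which encodes Blimp-1, was called at 24 h alone (-0.27, adjusted p = 0.032), and Derl3, of the same programme, fell by 0.33 at 24 h (0.000703).

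Markers of several other blood cells were called at 2 h, where 18.6% of all probe sets were called lower and 21.7% higher. All 12 T cell markers were lower at 2 h (median -0.96, from -1.23 in Cd8b to -0.32 in Zap70), and 9 of 10 T cell transcription factors were (median -0.33), with Lef1 at -1.01. Of 8 NK cell markers, 5 were lower and 1 higher at 2 h (median -0.47). All 10 neutrophil markers were higher (median 1.40), with Fpr1 at 2.80. Of 8 monocyte markers, 3 were lower and 3 higher (median -0.05), with Cx3cr1 at -1.08 and Cd14 at 1.38. Of 9 genes of plasmacytoid dendritic cells, 5 were lower and 2 higher (median -0.31, from -1.07 to 0.35), with Siglech at -0.68. Of 8 myeloid transcription factors, 2 were lower and 2 higher (median 9.55e-05, from -1.31 in Klf4 to 0.42). Of 6 platelet genes, 0 were lower and 2 higher by limma (0 and 3 at an unadjusted p below 0.05), and after centring or quantile normalization 0 were higher. Of 8 erythroid genes, limma called 0 at 2 h, and 0 had an unadjusted p below 0.05. The part of these marker changes in the falls of the 9 factors was not tested.

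In the share of the fall left at 24 h, the median of the factors lay between those of other B cell genes and T cell markers. Of the 17 other B cell genes lower at 2 h, the lowest mean came at 1, 2, 3 and 6 h in 2, 6, 8 and 1, with a median of 31.9% of the fall left at 24 h. Of the 12 T cell markers, 10 were lowest at 6 h, with 60.3% left, and 7 of 9 T cell transcription factors were, with 62.9% left. In the 5 NK cell markers 84.3% was left. Of the 9 B cell factors, 4 were lowest at 2 h, 2 at 3 h and 3 at 6 h, with a median of 44.3% left. They include Pax5, lowest at 2 h with 60.7% left, whose F-test did not pass. Some lowest times were not resolved, with changes of 0.008 in Ebf1 and -0.014 in Pou2af1 from 2 to 3 h. Pou2f2 changed by -0.011 from 3 to 6 h. The counts and medians are over genes of the same arrays, and the lists were not tested against each other.

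**Figure D5:**
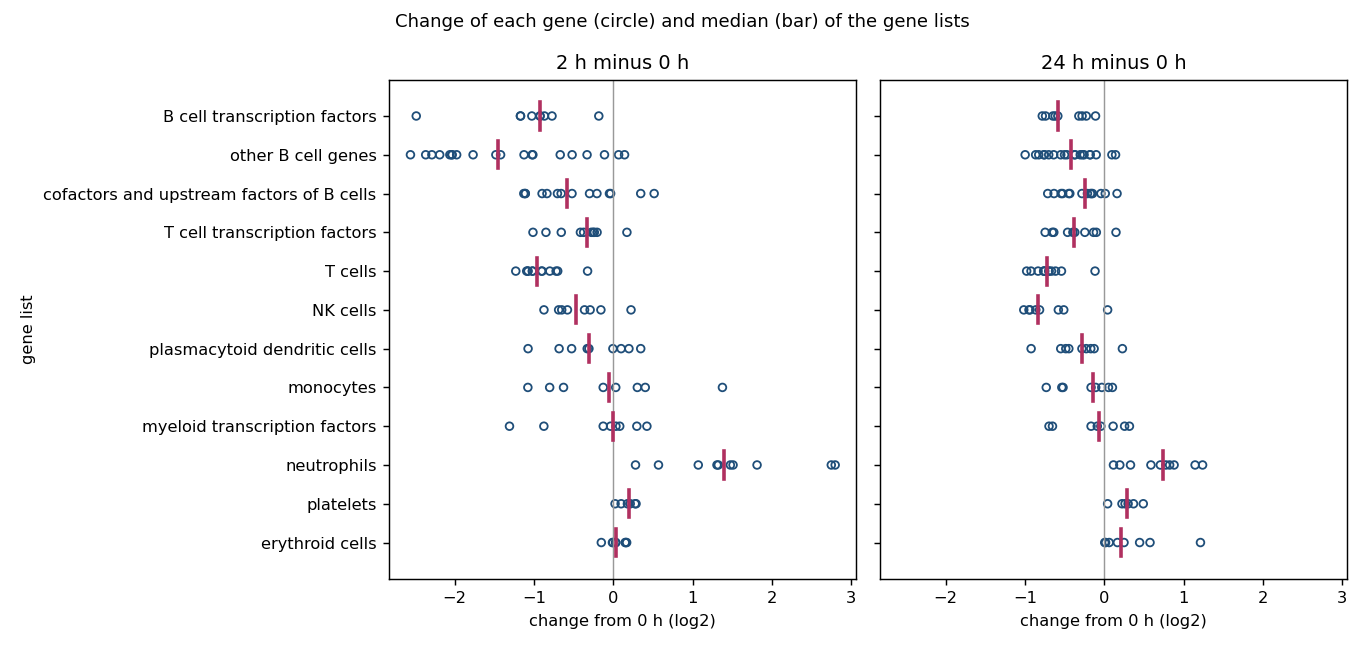
Change from 0 h (x axis, log2) of each gene (circles) and the median (red bar) of 12 gene lists (y axis) at 2 h (left) and 24 h (right). At 2 h the 9 B cell factors have a median of -0.92, T cell markers of -0.96 and neutrophil markers of 1.40, and at 24 h those medians are -0.59, -0.73 and 0.74.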

How the data were processed

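Blood RNA of 47 samples was hybridised to Affymetrix RaGene arrays. It was prepared in randomized batches, which the labels do not name, so batch was not modelled. The authors made log2 signals by RMA at the gene level, on the annotation of rn5, and deposited, per time point, a mean and an SD for every probe set. The submitters' processing notes name limma. The authors' columns of fold changes, p-values, FDR and F were not used, nor were 47 columns of single arrays, which are numbered 1 to 48 without 17. The labels hold no such numbers. Listed by rat and hour, the 17th sample would be the missing 6 h sample, so an order could be guessed, but samples were not assigned by order. Depth does not apply to arrays, and precision is limited by the 7 or 8 arrays behind each mean.

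From the deposited log2 means, SDs and array numbers, limma 3.58.1 (R 4.3.3) was applied to 27596 probe sets with eBayes, the variance pooled over the 6 time points (41 residual df). Means were compared with 0 h and between time points, two-sided, with Benjamini-Hochberg adjustment over all probe sets and a threshold of 0.05. The fit was tested on simulated data. The test takes the SDs as plain SDs of independent arrays. Where a symbol had several probe sets, that with the highest mean was used. Named were all 9 members, their family relatives, in each other list the 2 genes with the largest and the 2 with the smallest change at 2 h where space allowed, and the 3 genes nearest to a member's course. The members and all lists were chosen with earlier results of these data known. Jchain (listed as Igj), Cebpd, Fosl2, Itgb3 and Gp6 were not found by symbol. Alternatives were centred or quantile normalized means, a test without moderation, an intensity trend with robust prior, the SD of the compared times alone, the lowest 25% of probe sets left out, the 24 h samples left out, the other probe set and the mean over probe sets.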

Additional observations from a re-analysis of the deposited data

How the results depend on the processing

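The count of members higher at 24 h than at 2 h was 7, and 6 after centring, after quantile normalization, without moderation and with the SD of the compared times alone. Counts of members called against 0 h and by the F-test stayed within 1.5 times under each alternative run. Other counts moved as follows. With the SD of the compared times alone, 4 members were called lower from 1 to 2 h and 2 higher from 2 to 6 h. Without the 24 h samples, 4 were called lower from 1 to 2 h. With the other probe sets, 0 were called higher from 3 to 6 h by limma, and 1 at an unadjusted p below 0.05. After centring, 0 NK cell and 0 platelet genes were higher at 2 h. After quantile normalization of the means, 3 NK cell genes and 1 plasma cell gene were lower, and 1 T cell transcription factor and 0 platelet genes were higher at 2 h. Without moderation, 0 NK cell genes and 1 platelet gene were higher. With the SD of the compared times alone, and without the 24 h samples, 1 T cell transcription factor was higher at 2 h.

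Of single members, Pax5 at 1 h changed sign after quantile normalization (0.0198, adjusted p = 0.849), its change at 2 h was then not called (-0.10, adjusted p = 0.227), and after centring its change at 3 h was called (-0.17, adjusted p = 0.0296). At 24 h, Pou2af1 (-0.19, adjusted p = 0.0834) and Bach2 (-0.20, adjusted p = 0.0806) were not called after quantile normalization. The mean over both Bcl11a probe sets was -1.32, -1.79, -1.32 and -1.16 at 1, 2, 3 and 6 h, and the short one alone was not called at 24 h (-0.43, adjusted p = 0.202). The cause of each of these was not tested. No paired analysis was possible because no label ties the numbered single-array columns to rats, samples were not assigned to them by order, and the means and SDs hold no covariance within a rat. Neither single rats nor background signal were assessed here.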
